A study of Mus musculus with 8 samples.

Results

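Transcripts of 8 genes of the 2-cell-like state, the program marked by Zscan4, were examined in mouse epiblast-like cells (EpiLCs) with and without Tet1. The genes were Zscan4c, Zscan4d, Zscan4f, Zfp352, Tcstv1, Tcstv3, Tmem92 and Usp17la. They were chosen by symbol, each symbol was found once, and they are 8 of the 54281 genes of the expression tables. The study asks how loss of TET1, an enzyme that oxidizes 5-methylcytosine in DNA, alters the choice of germ layer when pluripotent cells differentiate. EpiLCs, a formative state between naive embryonic stem cells (ESCs) and primed epiblast, were made from ESC lines on day 2 of culture in medium with bFGF and knockout serum replacement. Polyadenylated RNA was sequenced from 4 Tet1 KO lines, named KO1, KO9, KO15 and KO25, and 4 wild-type (WT) lines, named WT7, WT12, WT17 and WT34. Each line gave 1 library of single-end reads of 50 bases. All 8 lines carry the source label B6129S6F1 Tet1 tm1Koh, the genotype label separates Tet1 KO from WT, and the methods describe blastocyst-derived male ESC lines of this cross kept on feeder fibroblasts. Before EpiLC culture, the methods adapt ESCs over several passages on gelatin to 2iL medium, which holds MEK and GSK3 inhibitors and LIF. The paper speaks of littermate pairs of KO and WT lines without saying which KO line belongs to which WT line. Each line stands for 1 embryo-derived culture and has no replicate of its own, so the spread below is between lines. The column names of KO1, KO9, WT7 and WT17 end in b1 and those of KO15, KO25, WT12 and WT34 in b2, a suffix that the sources do not explain.

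The mouse embryo starts its own transcription in earnest at the 2-cell stage, and a small part of the cells in an ESC culture returns for a short time to a state that uses the same genes. In that state the transcription factor DUX, after its own activation through DPPA2 and DPPA4, switches on the Zscan4 cluster, Zfp352, the Tcstv genes, Tmem92, Usp17l genes and endogenous retroviruses, while chromatin repressors such as TRIM28, SETDB1, CAF-1 and the PRC1.6 complex keep it rare. ZSCAN4 proteins, which join a SCAN domain to zinc fingers, are known for telomere elongation and genome stability in ESCs. In bulk RNA a lower level from fewer such cells cannot be told apart from less RNA in each cell.

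The members lie at 5 places in the genome (GRCm38, GENCODE M21). Zscan4c is at chr7:11005745-11010547 on the plus strand, Zscan4d at chr7:11161374-11166159 on the minus strand and Zscan4f at chr7:11397915-11402318 on the plus strand, within 1 cluster that also holds Zscan4a, Zscan4b, Zscan4e and the genes named Zscan4-ps1 to Zscan4-ps3. Usp17la is elsewhere on the same chromosome, at chr7:104857009-104862667 on the plus strand. Tcstv1 (chr13:119893388-119894785, minus strand) and Tcstv3 (chr13:120316878-120318178, plus strand) are on the same chromosome, Zfp352 is at chr4:90218820-90225702 on the plus strand and Tmem92 at chr11:94777217-94782703 on the minus strand. All 8 are annotated as protein coding. The identifiers of the tables are ENSMUSG00000054272.6 for Zscan4c, ENSMUSG00000090714.10 for Zscan4d, ENSMUSG00000070828.10 for Zscan4f, ENSMUSG00000070902.5 for Zfp352, ENSMUSG00000096284.2 for Tcstv1, ENSMUSG00000095821.2 for Tcstv3, ENSMUSG00000075610.9 for Tmem92 and ENSMUSG00000054568.7 for Usp17la.

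How far a read can name its gene differs between the members. Of the 50-base windows in their annotated transcripts, the length of the reads, 85.5% of Zscan4c, 49.6% of Zscan4d and 86.8% of Zscan4f also occur in a transcript of another gene, mostly another Zscan4 copy. The share was 31.4% for Tcstv3, 19.3% for Usp17la, 15.0% for Tcstv1, 7.1% for Zfp352 and 1.9% for Tmem92. Over the aligned part of their longest transcripts, Zscan4c and Zscan4f were identical at 1799 of 1806 bases (99.6%), Zscan4c and Zscan4d at 97.5%, Zscan4d and Zscan4f at 97.8%, and Tcstv1 and Tcstv3 at 90.2%. The stretch of coding sequence in exon 4, the last of 4, where the Zscan4 members differ most is printed here, because only reads over such positions place a fragment in 1 copy. Capitals mark the 6 positions at which the copies are not all the same, at chr7:11009517-11009566 (plus strand) in Zscan4c, chr7:11162351-11162400 (minus strand) in Zscan4d and chr7:11401710-11401759 (plus strand) in Zscan4f.
Zscan4c: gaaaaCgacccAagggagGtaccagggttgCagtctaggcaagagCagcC
Zscan4d: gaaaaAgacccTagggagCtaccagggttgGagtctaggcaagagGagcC
Zscan4f: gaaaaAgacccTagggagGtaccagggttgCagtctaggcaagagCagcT
The counts of single Zscan4 genes are therefore estimates of how shared reads divide, and the sum over all 9 Zscan4 genes given below depends less on that division.

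The sequence before the transcription start was compared too, since the Zscan4 members are read together below and CpG is the substrate of TET1. RefSeq (GRCm38.p6) held a promoter for 5 of the 8 members, namely Zscan4c, Zscan4d, Zscan4f, Zfp352 and Usp17la. The 250 bases before the start of the Zscan4 members follow, 5′ to 3′ on the strand of the gene, with each CpG in capitals, from chr7:11005495-11005744 (plus strand) for Zscan4c, chr7:11166149-11166398 (minus strand) for Zscan4d and chr7:11397665-11397914 (plus strand) for Zscan4f. The RefSeq start of Zscan4d lies slightly inside the GENCODE transcript.
Zscan4c: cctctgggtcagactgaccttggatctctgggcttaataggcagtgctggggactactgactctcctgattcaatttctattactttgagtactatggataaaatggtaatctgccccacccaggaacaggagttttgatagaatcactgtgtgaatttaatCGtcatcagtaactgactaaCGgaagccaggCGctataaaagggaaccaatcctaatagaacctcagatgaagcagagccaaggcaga
Zscan4d: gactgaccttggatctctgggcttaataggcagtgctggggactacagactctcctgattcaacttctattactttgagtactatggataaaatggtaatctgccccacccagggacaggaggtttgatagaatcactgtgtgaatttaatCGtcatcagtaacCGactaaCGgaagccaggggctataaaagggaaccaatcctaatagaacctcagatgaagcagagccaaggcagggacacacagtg
Zscan4f: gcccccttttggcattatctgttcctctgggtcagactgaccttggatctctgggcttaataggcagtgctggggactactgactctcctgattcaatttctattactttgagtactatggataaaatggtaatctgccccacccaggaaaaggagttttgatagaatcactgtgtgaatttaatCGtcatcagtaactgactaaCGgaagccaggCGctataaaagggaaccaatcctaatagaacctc
Each of these windows holds 3 CpG, against a median of 5 in 250 bases over 27025 mouse promoters, of which 38.5% had 3 or fewer. Zfp352 had 2 and Usp17la 1. The letters TATAAA, searched on both strands, occurred once in each Zscan4 window and in neither of the other 2, and were in 12.9% of all promoters. The Zscan4c and Zscan4f windows were identical at 226 of 227 aligned bases, and the Zscan4d window was identical to them at 97.1% and 96.8% of aligned bases.

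Total estimated counts were 13916400 to 20917687 per KO library and 14771269 to 23680640 per WT library, so 1 count stood for 0.0417 to 0.0729 CPM, the share of a library that a gene takes after TMM scaling. Tet1 itself averaged 47.9 ± 7.47 CPM in KO lines and 750 ± 132 CPM in WT lines (SD, n = 4 each), with no overlap. EpiLC markers (Pou5f1, Dnmt3b, Otx2, Fgf5 and Pou2f2) summed to 729 to 777 TPM in KO lines and 660 to 826 TPM in WT lines, and none of the 5 passed the test between genotypes. One WT library stood apart: WT12, whose title and cell line label (WT9) differ, had 12.7 TPM summed over the naive markers Zfp42, Esrrb, Klf4 and Nr0b1, against 23.8 to 33.95 TPM in the other 7 libraries. It is also the deepest library. Differences in mean CPM are given below with and without it for each member, and the part of this difference in them was not tested. Of the feeder fibroblast markers, Postn had no count in any line and Lum was at 0 in 7 of 8. The feeder list summed to 11.01 to 29.9 TPM in KO lines and 5.45 to 20.3 TPM in WT lines, largely from Thy1. Dcn had 45 to 159 counts and Col1a1 and Col1a2 5 to 52 counts in every line. The methods passage the ESCs on gelatin before EpiLC culture, and whether this RNA came from feeders or from the EpiLCs was not tested. Col3a1 had 53 counts (3.87 CPM) in KO25, the KO line with the highest member sum, against 0 to 4 counts in the other 7 lines, and its part in the results was not tested.

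All 8 genes were scarce, and each was detected, with at least 1 estimated count, in some lines. Usp17la, which encodes a deubiquitinase of the USP17 family, was the only member with counts in all 8 lines. Zscan4f was detected in 3 of 4 KO lines and 4 of 4 WT lines. Zscan4d and Tcstv3 were each detected in 3 KO and 3 WT lines, and Zfp352, Tcstv1 and Tmem92 each in 2 KO and 4 WT lines. Zscan4c was detected in 0 KO lines and 3 WT lines. With at least 5 counts as the limit, the lines fell to 0 for Tcstv1, 1 for Zfp352 and 2 for Tcstv3, so detection of these genes rests on few reads. By line, KO1 had counts for 5 members, KO9 for 2, KO15 and KO25 for 6 each, WT7 for 7, WT17 for 6, and WT12 and WT34 for all 8. KO9 was at 0 for 6 of the 8 genes. A count of 0 allows up to 3 counts, or 0.141 to 0.219 CPM in a KO library, and this limit and the intervals below cover counting error only.

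**Figure D1:**
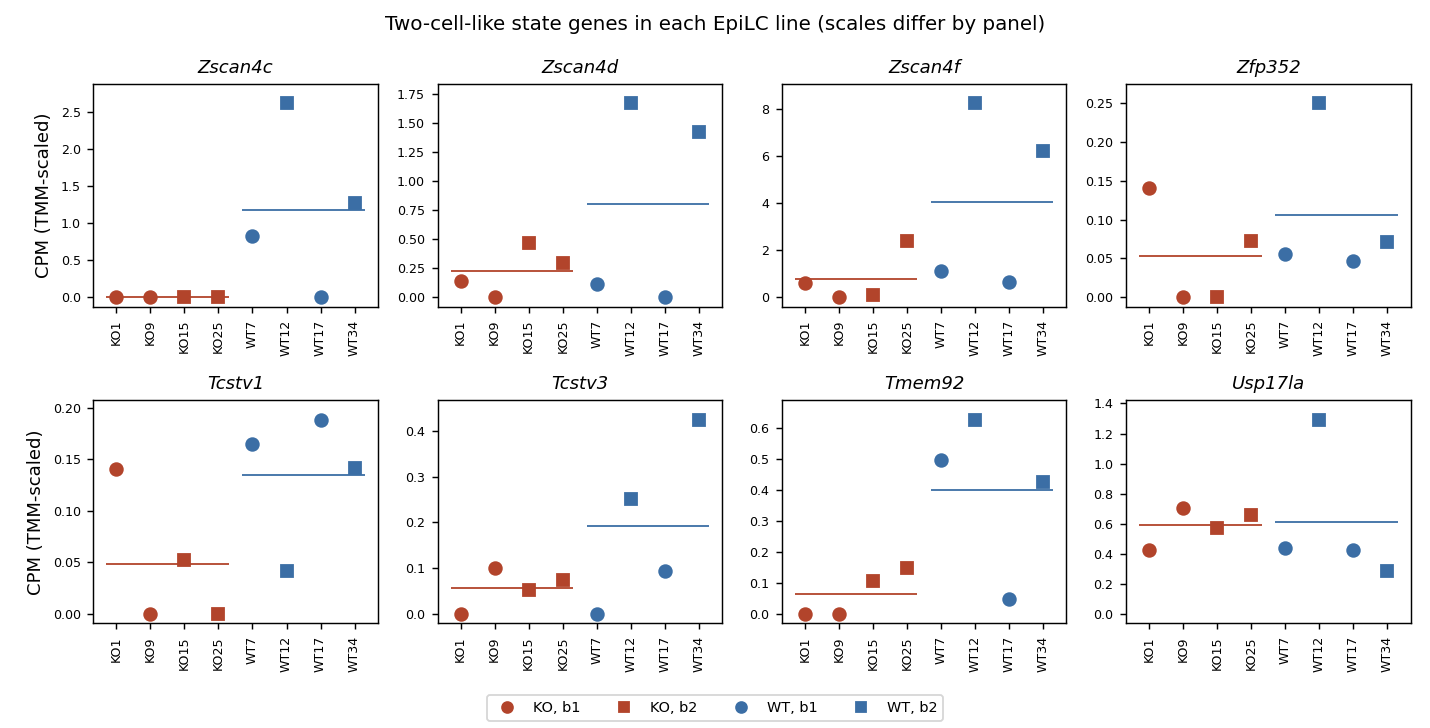
Level of each of the 8 genes in each EpiLC line, in CPM on the vertical axis (scales differ by panel), with KO lines in red on the left and WT lines in blue on the right, circles for b1 and squares for b2 columns, and horizontal lines at the group means. WT12 is the highest line for 6 of the 8 genes, Zscan4c is at 0 in all 4 KO lines, and the groups overlap in every panel.

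Zscan4c, in the cluster that marks the state, had 0 estimated counts in KO1, KO9, KO15 and KO25, against 15 in WT7, 63 in WT12, 0 in WT17 and 18 in WT34. The KO lines and WT17 were alike at 0, and the other WT lines lay between 0.825 and 2.63 CPM. Setting each KO library at 3 counts (a mean of 0.166 CPM), Zscan4c was 7.10-fold lower in KO than the WT mean of 1.182 ± 1.099 CPM (SD, n = 4). Against the mean of 0.6997 CPM without WT12 it was 4.205-fold lower. These bounds take the authors' division of shared reads as given. They cover counting error in the KO lines only and leave out the spread between WT lines. Zscan4c did not pass the low-count filter. In the fit without the filter its unadjusted p was 6.907e-04 and its adjusted p 0.397 (edgeR quasi-likelihood test with Benjamini-Hochberg adjustment over 35073 genes). The exact permutation test of mean CPM over the 70 assignments gave p = 0.143, where the smallest p that 4 against 4 lines can give is 0.0286. The call turned on WT17 and on the column suffix. Without WT17 the adjusted p was 0.0151, in a fit that called 0.0318% of its genes. With all 8 lines and the suffix as a term it was 7.294e-12, as described with the suffix below. That fit called 2.55% of genes, against 0.0228% without the term, and a gene's own spread between lines hardly entered its p.

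Zscan4d had 3, 0, 9 and 4 counts in KO1, KO9, KO15 and KO25, against 2, 40, 0 and 20 in WT7, WT12, WT17 and WT34. Its 2 high lines were WT12 (95% Poisson interval 28.6 to 54.5 counts) and WT34 (12.2 to 30.9), and WT7 and WT17 lay among the KO lines. Mean levels were 0.225 ± 0.201 CPM in KO and 0.799 ± 0.866 CPM in WT (SD, n = 4 each), and the log2 fold change was -1.80 ± 1.05 (SE, adjusted p = 0.808 without the filter, edgeR).

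Zscan4f carried most of the signal. It had 13, 0, 2 and 33 counts in KO1, KO9, KO15 and KO25, against 20, 198, 14 and 88 in WT7, WT12, WT17 and WT34. KO25 (22.7 to 46.3 counts) stood above WT7 and WT17, and WT12 (171 to 228) and WT34 (70.6 to 108) above all KO lines. In CPM the means were 0.780 ± 1.12 in KO and 4.06 ± 3.77 in WT (SD, n = 4 each). Zscan4f was 1 of the 2 members to pass the low-count filter. Its log2 fold change was -2.47 ± 1.14 (SE) with an adjusted p of 0.911 by edgeR over 17272 genes, of which 0.0405% were called (unadjusted p = 0.0563), and the exact permutation test gave p = 0.171. Without WT12 the log2 fold change was -1.83, and without KO25 it was -4.02, each still with an adjusted p above 0.9.

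Copies were also summed, which depends less on how reads were divided between them. Zscan4c, Zscan4d and Zscan4f together had 16, 0, 11 and 37 counts in KO1, KO9, KO15 and KO25, against 37, 301, 14 and 126 in WT7, WT12, WT17 and WT34. Their summed log2 fold change was -2.66 ± 1.07 (SE, adjusted p = 0.822, edgeR). Over all 9 Zscan4 genes the counts were 39, 7, 84 and 65 in these KO lines, against 61, 602, 36 and 208 in the WT lines. That sum had a log2 fold change of -2.01 ± 0.90 (SE, adjusted p = 0.883), and 3 of 4 KO lines exceeded WT17, 2 of them also WT7. In CPM this sum averaged 2.82 ± 2.09 in KO lines (n = 4) and 11.2 ± 10.9 in WT lines (n = 4), or 6.59 ± 7.09 without WT12 (SD, n = 3). KO15 had 11 of its 84 Zscan4 counts in the 3 members and the rest in the other copies, while KO9 had all of its 7 in Zscan4-ps1.

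Tmem92, a gene for a transmembrane protein that is turned on in 2-cell-like cells and shares few windows with other genes, had 0, 0, 2 and 2 counts in KO1, KO9, KO15 and KO25, against 9, 15, 1 and 6 in WT7, WT12, WT17 and WT34. All lines but WT17 were ordered by genotype, and WT17 lay between the KO lines at 0 and those at 2 counts. Levels averaged 0.0624 ± 0.0741 CPM in KO and 0.398 ± 0.248 CPM in WT (SD, n = 4 each). Its log2 fold change without the filter was -2.67 ± 1.00 (SE, unadjusted p = 0.0180, adjusted p = 0.808, edgeR), and the exact permutation test gave p = 0.0857.

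The Tcstv genes encode small proteins first found as variable transcripts of the 2-cell stage. Tcstv1 had 3, 0, 1 and 0 counts in KO1, KO9, KO15 and KO25, against 3, 1, 4 and 2 in WT7, WT12, WT17 and WT34. Unlike the Zscan4 members, it was highest in WT17 and lowest among WT lines in WT12. Tcstv3 had 0, 2, 1 and 1 counts in the KO lines, in that order, against 0, 6, 2 and 6 in the WT lines. Adding them gave 3, 2, 2 and 1 counts in KO lines and 3, 7, 6 and 8 in WT lines, with a log2 fold change of -1.52 ± 0.52 (SE, unadjusted p = 0.0162, adjusted p = 0.749, edgeR). The sums met at 3 counts, in KO1 and WT7, but in CPM, which scales by library, they lay at 0.0729 to 0.141 in the 4 KO lines and at 0.165 to 0.566 in the 4 WT lines, without overlap. All KO lines below all WT lines was seen for 1.27% of single genes with a count.

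Zfp352, a zinc finger gene transcribed at the 2-cell stage, had 3, 0, 0 and 1 counts in KO1, KO9, KO15 and KO25, against 1, 6, 1 and 1 in WT7, WT12, WT17 and WT34. WT12 was the only line above 3 counts. The log2 fold change of Zfp352 was -0.93 ± 1.13 (SE, adjusted p = 0.9001 without the filter, edgeR). Usp17la had 9, 14, 11 and 9 counts in these KO lines, against 8, 31, 9 and 4 in the WT lines. Levels were even among KO lines (0.588 ± 0.123 CPM, n = 4), and in WT (0.610 ± 0.461 CPM, n = 4, SD) WT12 was above and WT34 below all others. Its log2 fold change was -0.10 ± 0.49 (SE, adjusted p = 0.998, edgeR with the filter), and without WT12 it became 0.59. Adding its 4 sister copies Usp17lb to Usp17le gave 18, 15, 31 and 13 counts in KO lines and 15, 89, 13 and 20 in WT lines, with a log2 fold change of -0.67 ± 0.56 (SE, adjusted p = 0.998). Its mean was 1.04 CPM in KO and 1.64 CPM in WT, or 0.951 CPM in WT without WT12.

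Per transcript length, in the TPM that the authors deposited, Zscan4f was the highest member in either genotype, at 0.239 ± 0.278 TPM in KO and 1.61 ± 1.82 TPM in WT (SD, n = 4 each). In WT lines it was followed by Zscan4c (0.254 ± 0.242 TPM), Tcstv3 (0.208 ± 0.163), Zscan4d (0.170 ± 0.189), Tmem92 (0.108 ± 0.0692), Usp17la (0.106 ± 0.0856), Tcstv1 (0.0752 ± 0.0391) and Zfp352 (0.0257 ± 0.0202). Neighbours in this order differed by less than the larger of their SDs, except Tcstv1 and Zfp352. In KO lines Usp17la came after Zscan4f at 0.0991 ± 0.0206 TPM, and Zscan4c was listed at 0. The 2 counts of Zscan4f in KO15 stood for 0.154 TPM and the 13 in KO1 for 0.162 TPM, since TPM divides by the length of the transcript to which reads were assigned.

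No member was called between KO and WT. Among the 8 members the mean CPM was lower in KO for 8, and the median log2 fold change without the filter was -1.72. Over all 35073 genes with a count, 48.6% had a negative value and the median was 0.01. That fit called 0.0228% of genes. An unadjusted p under 0.05 was reached by 3 members, Zscan4c, Zscan4f and Tmem92, against 4.4% of all genes. DESeq2 called none of the 8 either. In the exact permutation tests over lines, p ranged from 0.0857 for Tmem92 to 0.943 for Usp17la. For 0 of the 8 genes did all KO lines lie below all WT lines, a pattern that 1.27% of all genes with a count showed. Since members share reads, lines and a program, they are not 8 separate tests.

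**Figure D2:**
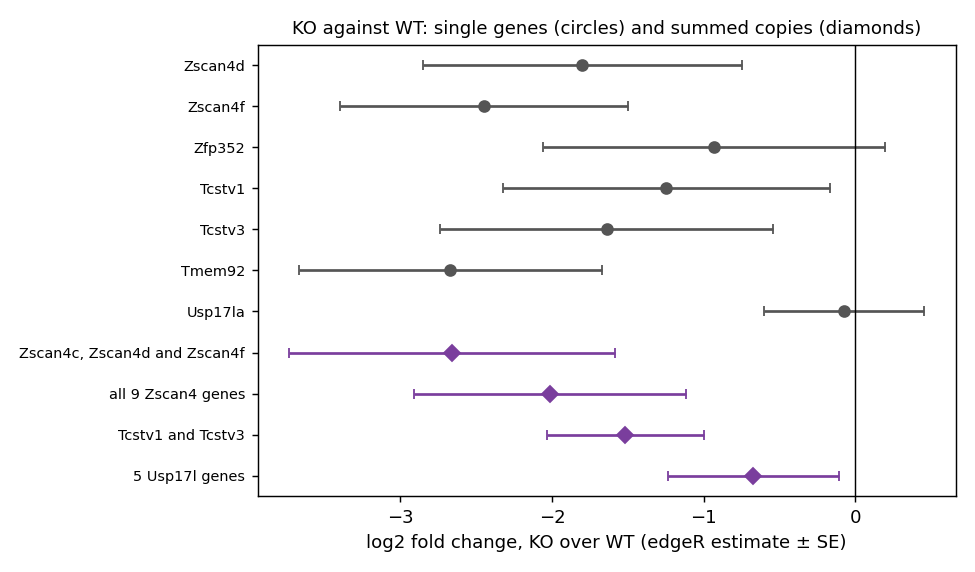
Log2 fold change of KO over WT on the horizontal axis for 7 of the genes (circles, fit without the filter) and for summed copies (diamonds), with bars of 1 SE. All 11 estimates lie below 0, with Usp17la and Zfp352 within 1 SE of it, and Zscan4c is left out because its KO lines are all at 0.

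Summed over the 8 genes, levels averaged 1.81 ± 1.26 CPM in KO and 7.48 ± 6.30 CPM in WT (SD, n = 4 each), or 4.97 ± 4.67 CPM in WT without WT12 (n = 3), and the WT lines alone spanned more than the difference of the means. KO1, KO9, KO15 and KO25 had 31, 16, 26 and 50 counts (1.45, 0.802, 1.35 and 3.65 CPM), against 58, 360, 31 and 145 counts (3.19, 15.0, 1.46 and 10.3 CPM) in the WT lines in the order used above. WT12 and WT34 stood above all other lines, WT17 lay within the KO lines, and KO25 was above WT7. WT12 alone held 50.2% of all member counts and WT34 20.2%. By gene, WT12 held 65.6% of the counts of Zscan4c, 53.8% of Zscan4f, 51.3% of Zscan4d, 46.2% of Zfp352, 42.9% of Tmem92, 33.3% of Tcstv3, 32.6% of Usp17la and 7.14% of Tcstv1. Without WT12 the difference in mean CPM (KO minus WT) became -0.700 for Zscan4c, beside -1.182 with it, -1.88 beside -3.28 for Zscan4f, -0.284 beside -0.574 for Zscan4d, -0.260 beside -0.336 for Tmem92, -0.117 beside -0.136 for Tcstv3 and -0.00424 beside -0.0524 for Zfp352, and for Usp17la it turned to 0.205 beside -0.0222. For Tcstv1 it was -0.117 without WT12 beside -0.0860 with it, and the exact permutation p 0.0571 beside 0.114. The smallest p without WT12 was that of Tcstv1. WT12 was the single highest line by CPM for 6 of the 8 genes, against 15.5% of all genes with a count.

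**Figure D3:**
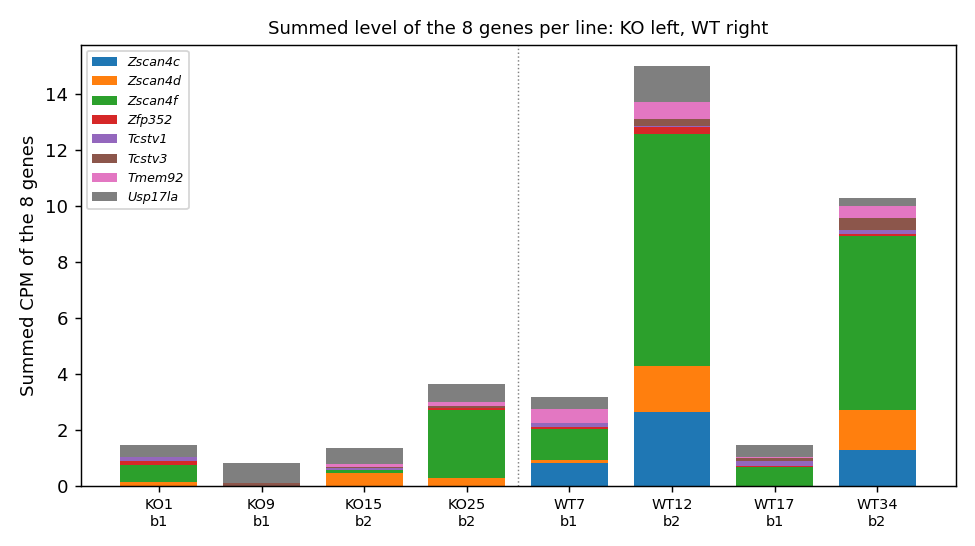
Stacked bars of the CPM of the 8 genes in each line, with KO lines left of the dotted line, WT lines right of it, and the column suffix under each name. The sum is 15.0 CPM in WT12 and 10.3 CPM in WT34, and 0.802 to 3.65 CPM in the other 6 lines, with Zscan4f the largest part in KO1, KO25 and the 4 WT lines.

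By the sum of the 8 members, the 3 highest lines, WT12, WT34 and KO25, all had the suffix b2, and KO15 with the same suffix did not stand out. By the sum of all 9 Zscan4 genes, every b2 line lay above every b1 line. The b2 lines were at 4.36 CPM in KO15, 4.74 in KO25, 14.7 in WT34 and 25.1 in WT12. The b1 lines ran from 0.351 CPM in KO9 to 3.35 in WT7. The share of all genes with this order was not computed. With genotype in the model, b2 over b1 gave log2 differences of 3.599 for Zscan4d (adjusted p = 3.223e-06), 2.59 for Zscan4f (1.586e-12) and 2.20 for Zscan4c (0.00930) by edgeR without the filter, and the other 5 members did not pass. This contrast called 15.1% of all genes, in a fit where a gene's own spread between lines hardly entered p. With the filter, where it called 24.6%, Zscan4f passed at an adjusted p of 0.0395. Within b2, the summed Zscan4c, Zscan4d and Zscan4f counts were 11 in KO15 and 37 in KO25, against 301 in WT12 and 126 in WT34. Within b1 they were 16 in KO1 and 0 in KO9, against 37 in WT7 and 14 in WT17. For 5 of the 8 members both b2 KO lines lay below both b2 WT lines, a pattern of 13.5% of all genes, and for 3 of 8 both b1 KO lines lay below both b1 WT lines, against 17.2%. With suffix as a term and no filter, Zscan4c passed (adjusted p = 7.294e-12), as it did in the b2 lines alone (1.084e-09). Those fits called 2.55% and 0.780% of genes, and no other member below the filter passed in either. In the b2 lines alone, Zscan4c counts of 0 in KO15 and KO25 were set against 63 in WT12 and 18 in WT34. With 2 lines per group, that p rests mainly on spread pooled over genes and not on these lines. Zscan4f and Usp17la, which passed the filter, were read from filtered fits instead. Neither passed there, with an adjusted p for Zscan4f of 0.329 with suffix as a term and 0.999 in the b2 lines alone (edgeR). The genotype difference itself did not pass a test between suffixes for any member (edgeR interaction, lowest unadjusted p = 0.112 for Zscan4f), in a fit that called 0.479% of genes. For Zscan4c that test cannot decide, because the gene is at 0 in the KO lines of either suffix.

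The members moved together only in part. Over the 8 lines, Pearson's r of log2(CPM + 1) was positive for 25 of the 28 pairs, with a median of 0.52, and Spearman's rho for 22, with a median of 0.23. The points share their library and depth, and Zscan4 copies share reads. The highest r was 0.94, between Zscan4c and Tmem92 (rho 0.85), which share few windows. Within the Zscan4 members r was 0.82 to 0.86, and Tcstv3 had r of 0.65 to 0.81 with them. Tcstv1 followed none of the others, with r of -0.12 to 0.12 against the Zscan4 members, Tcstv3, Zfp352 and Tmem92, and of -0.65 with Usp17la. Without WT12 the median r was 0.30 and every correlation of Usp17la was negative, while Zscan4c and Tmem92 kept r = 0.92. Without WT12 and WT34 the median r over 6 lines was -0.06, and without WT34 alone it was 0.68. WT12 and WT34 are the lines with the highest member sums, and most members had few counts in the other 6. Among lines of the same genotype and suffix, where each line is set against 1 other, the median r of deviations was 0.18.

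**Figure D4:**
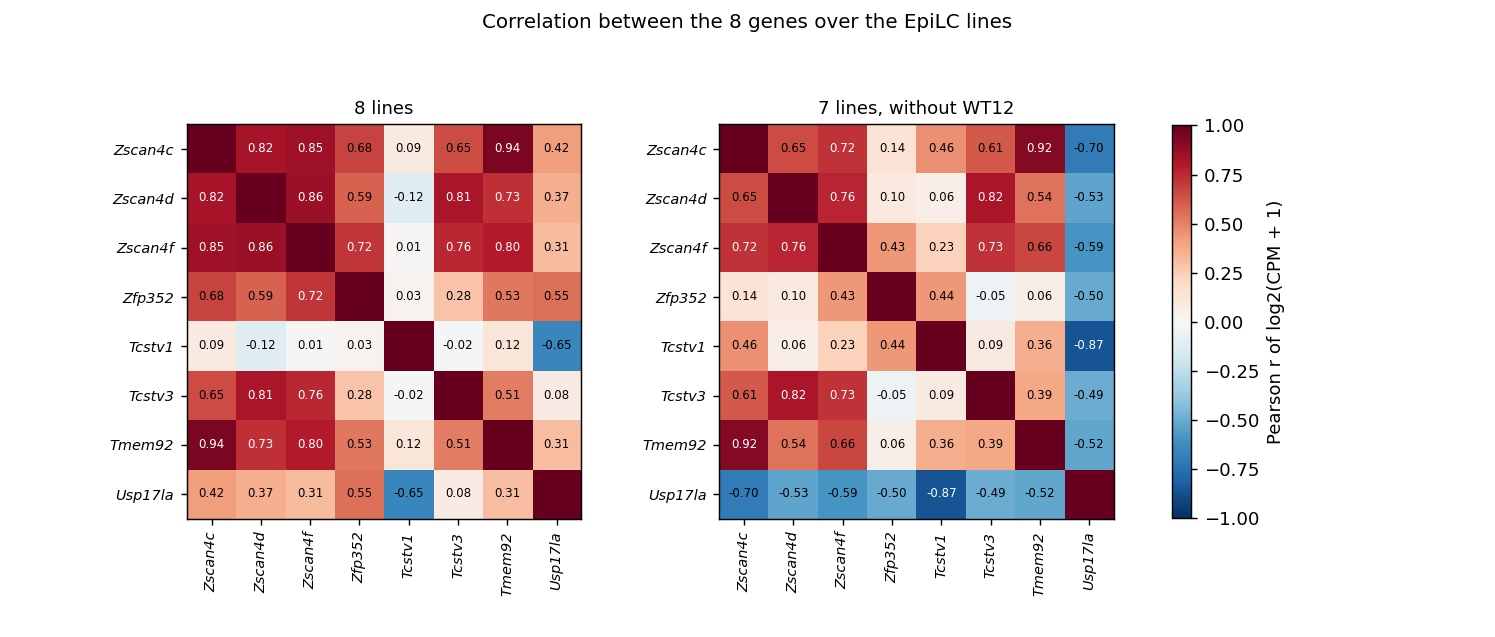
Pearson's r of log2(CPM + 1) between each pair of the 8 genes over the 8 lines (left) and over the 7 lines without WT12 (right), with red for positive and blue for negative values. The Zscan4 members, Tmem92 and Tcstv3 are positive to each other in either panel, Tcstv1 is near 0 with most genes over the 8 lines, and Usp17la turns negative to all others without WT12.

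Among 17188 genes that passed the filter and are neither members nor listed 2-cell genes, regulators or markers, 50 had r above 0.9 and 46 r below -0.9 with the log2 summed level of the members over the 8 lines. The 5 most alike with an established symbol were Zfp2 (r = 0.97), Olfr307 (0.96), Nipal2 (0.96), Atrx (0.96) and Wdr44 (0.95), picked as the highest of many. Atrx, which encodes a chromatin remodeller, was at 453, 465, 468 and 478 CPM in the KO lines in the order used above, against 485, 568, 467 and 529 CPM in the WT lines. Its levels spanned a narrow range, with WT12 and WT34 highest. None of the 5 was called between KO and WT (adjusted p of 0.936 to 0.998, edgeR), and their r without WT12 was 0.91 to 0.94.

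The other copies of the Zscan4 cluster followed the members in part. All 6 had counts, and WT12 was the highest line in 6 of 6, against 15.5% of all genes with a count. The next highest was WT34 for Zscan4a, Zscan4e and Zscan4-ps3, KO25 for Zscan4b (0.656 CPM, against 0.566 CPM in WT34) and Zscan4-ps1 (0.729 CPM, against 0.142 CPM in WT34), and KO15 for Zscan4-ps2 (0.779 CPM, against 0.496 CPM in WT34). Zscan4e, the only one to pass the filter, had 8, 0, 18 and 0 counts in KO1, KO9, KO15 and KO25, against 16, 98, 0 and 35 in WT7, WT12, WT17 and WT34 (log2 fold change -2.43 ± 1.24 SE, adjusted p = 0.936, edgeR). Zscan4a had counts of 0 to 21 in KO lines and 0 to 55 in WT lines, Zscan4b of 0 to 9 and 0 to 24, Zscan4-ps2 of 0 to 15 and 0 to 72, and Zscan4-ps3 of 0 to 15 and 2 to 33. Zscan4-ps1 was the 1 copy whose mean did not lie lower in KO, at 4 to 10 counts in KO lines and 0 to 19 in WT lines.

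A wider list of 35 other 2-cell genes was summed in TPM. The list was picked from general knowledge of the program but with earlier results of these data known, so it is no independent check. It had 1.38, 0.844, 2.11 and 1.34 TPM in KO1, KO9, KO15 and KO25, against 2.05, 8.24, 2.22 and 4.24 TPM in WT7, WT12, WT17 and WT34. WT12 and WT34 were again the highest, and WT7 lay just under KO15. Of the 29 with a count, 23 had a lower mean CPM in KO, beside a negative log2 fold change in 48.6% of all genes with a count. WT12 was the highest line for 17, against 15.5% of all genes with a count. Duxf3, the gene of the factor DUX, had 0, 1, 0 and 3 counts in the KO lines in that order, against 11, 16, 0 and 7 in the WT lines, with WT17 at 0 as for Zscan4c. It was named after its values were seen. Only 3 of the 35 passed the filter and none was called. Duxbl1, a double homeobox gene, had the lowest p of these 3 (0.737 ± 0.886 CPM in KO and 2.80 ± 0.722 CPM in WT, SD, n = 4 each, log2 fold change -1.89, adjusted p = 0.810), Zscan5b had 0.56 and Ubtfl1 -0.48. In the fit without the filter Gm4027 (unadjusted p = 0.00358), Gm5662 (0.00751) and Arg2 (0.0114) came before Duxbl1, with adjusted p of 0.761 to 0.808 by edgeR. Arg2, which encodes an arginase, went the other way, with 11, 9, 16 and 14 counts in KO1, KO9, KO15 and KO25, against 4, 8, 4 and 3 in WT7, WT12, WT17 and WT34. In CPM all KO lines lay above all WT lines for Arg2, an order whose share over all genes was not computed. Gm4027, Gm5662 and Arg2 were also named after their values were seen.

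**Figure D5:**
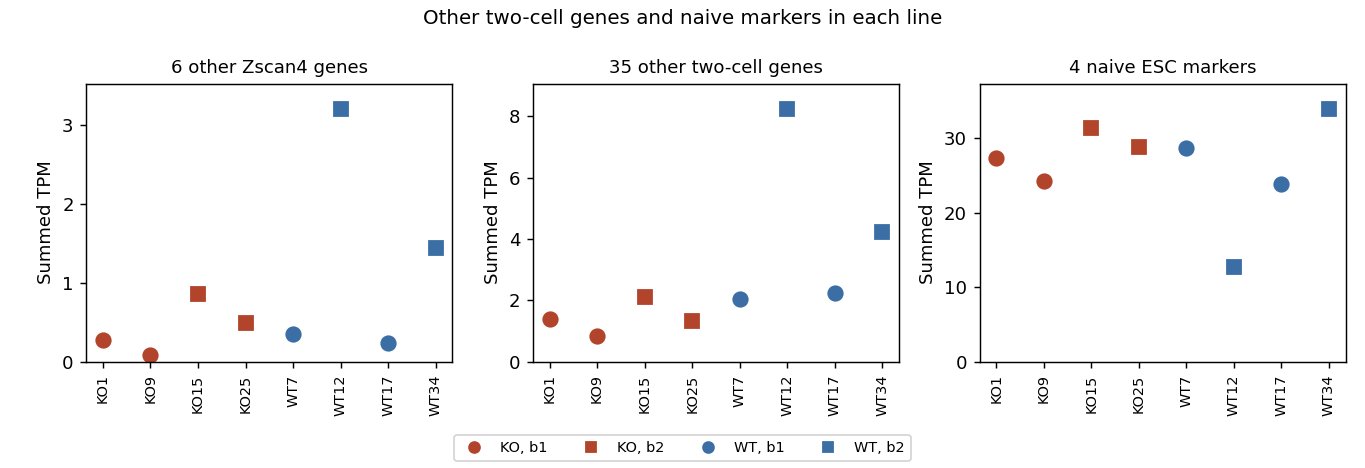
Summed TPM in each line of the 6 other Zscan4 genes (left), 35 other 2-cell genes (middle) and 4 naive ESC markers (right), with KO lines in red on the left of each panel and WT lines in blue on the right, circles for b1 and squares for b2. WT12 is highest for the 2-cell lists at 3.20 and 8.24 TPM and lowest for the naive markers at 12.7 TPM.

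Regulators of the state were listed too. All 5 listed activators were tested and none was called. Their summed level was 71.6 to 80.6 TPM in KO lines and 70.5 to 84.0 TPM in WT lines. Dppa2 averaged 66.0 ± 26.6 CPM in KO and 72.2 ± 19.8 CPM in WT, and Dppa4 averaged 117 ± 9.37 CPM in KO and 122 ± 17.7 CPM in WT (SD, n = 4 each). Gata2, the activator with the lowest p and a scarce one (0.563 CPM in KO and 0.849 CPM in WT on average), had a log2 fold change of -0.58 ± 0.33 (SE, adjusted p = 0.969, edgeR), and Tbx3 had one of 0.12. Of the 23 listed repressors, all were tested, none was called, 11 had negative values, and the median log2 fold change was 0.0016 beside -0.0044 over all genes tested. The lowest p among them was that of Chaf1b, a subunit of the histone chaperone CAF-1, with 116 ± 0.967 CPM in KO and 126 ± 4.94 CPM in WT (SD, n = 4 each, log2 fold change -0.12, adjusted p = 0.967). Pcgf6, Zmym2 and Sumo2 followed, with log2 fold changes of 0.13, -0.10 and 0.10. Summed repressor levels were 2810 to 3155 TPM in KO lines and 2726 to 3096 TPM in WT lines.

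None of the tested genes was called among the 4 naive, 4 feeder, 4 endoderm, 2 trophoblast and 3 germ cell markers that passed the filter. Summed endoderm markers were 1.65 to 4.11 TPM in KO and 2.33 to 4.50 TPM in WT, trophoblast markers 0.160 to 0.724 TPM in KO and 0.274 to 0.383 TPM in WT, and germ cell markers 4.25 to 6.68 TPM in KO and 3.94 to 7.86 TPM in WT. All 5 endoderm markers had a higher mean CPM in KO, where 48.6% of all genes with a count had a negative log2 fold change. Sox17, an endoderm factor below the filter, had 7, 9, 9 and 5 counts in KO1, KO9, KO15 and KO25, against 4, 5, 1 and 3 in WT7, WT12, WT17 and WT34. In CPM all KO lines lay above all WT lines for Sox17 (adjusted p = 0.808 without the filter, edgeR), an order whose share over all genes was not computed. Nanos3, a germ cell gene, had 1, 0, 1 and 1 counts in the KO lines and 3, 2, 3 and 2 in the WT lines. All KO lines lay below all WT lines for it (adjusted p = 0.808), as for 1.27% of all genes with a count. The part of Sox17 and Nanos3 in the results was not tested.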

How the data were processed

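The paper's methods state that the authors trimmed the single-end reads of the stranded mRNA libraries with Trim Galore 0.6.4, quantified them with Salmon 0.14.1 against a GENCODE mouse transcriptome and summed transcripts to genes in R 4.0.2. The submitters' processing notes name the build mm10. The authors deposited these estimated counts, which are not whole numbers, and the TPM of the same run as separate tables of 8 libraries, which were matched to lines by the line name in the library title. Titles were followed for the libraries titled WT12 and WT17, whose cell line labels read WT9 and WT12.

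Estimated counts were rounded (27.8% of values changed). edgeR 4.0.16 (R 4.3.3) kept 17272 of 54281 genes with filterByExpr, scaled them by TMM and tested genotype in its quasi-likelihood model, and genes were called at a Benjamini-Hochberg adjusted p under 0.05. Members under the filter were read from a fit of all 35073 genes with a count. The SE is the absolute log2 fold change over the square root of F. Two-sided exact permutation tests compared mean CPM. Count intervals are exact Poisson at 95%. Fits were tested on simulated data. Transcript windows and positions come from GENCODE M21, which is not the release the authors used. The members and all gene lists were chosen with earlier results of these data known. Genes named beside the members are the Zscan4 cluster, those of each list with the lowest p, and the 5 genes most alike over lines. Replicates are separate ESC lines, and p-values rest on the spread between them, which edgeR pools in part over genes. In the unfiltered fit with genotype and suffix, p followed the ratio of estimate to SE by the normal law. There a gene's own spread between lines hardly entered. DESeq2 1.42.0 and limma 3.58.1, on log2(TPM + 1) or log2(TPM + 0.1), and other scalings, filters, suffix terms and left-out lines were the alternatives.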

Additional observations from a re-analysis of the deposited data

Results flagged for a closer look

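In 2 of the 26 groups of 4 lines examined, 1 line lay far from the others by Dixon's criterion for 4 values. Both are WT12. For values that follow the normal law, chance alone would do so in about 1 in 20 groups. Many of these groups hold few counts and some are sums of the same genes, so that rate need not hold here. Usp17la was at 1.29 CPM in WT12, against 0.440 CPM in the next highest and 0.283 CPM in the lowest WT line. Zfp352 was at 0.250 CPM in WT12, or 6 counts, against 0.0708 CPM in the next highest and 0.0471 CPM in the lowest WT line. For the Zscan4 genes the criterion was not met, because WT34 was also high.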

How the results depend on the processing

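The number of genes called between KO and WT was 7 by edgeR, 106 by DESeq2 (70 higher and 36 lower in KO), 2 by limma on log2(TPM + 1), 3 on log2(TPM + 0.1), 28 with suffix as a term and 19 in the b1 lines alone, and between 6 and 10 with single lines omitted. The log2 fold change of a member kept its direction in 132 of 138 alternatives and its adjusted p passed 0.05 in 3, all of them for Zscan4c: -7.36 with suffix as a term, -8.14 in the b2 lines alone and -7.89 without WT17, within -7.89 to -6.65 over the left-out lines. These are fitted values of a gene at 0 in all KO lines and no bounds. The 138 alternatives refit the same libraries, and a row of summed copies enters once for each of its members, so they are not separate checks. For Zscan4f and Usp17la, suffix terms, single suffixes and left-out lines were read from filtered fits only. The direction turned in the b1 lines alone for Zscan4d (0.42), Zfp352 (0.46) and Tcstv3 (0.0047), all with 0 to 3 counts per line there. For Usp17la it turned by limma on log2(TPM + 0.1) (0.0215) and without some lines (-0.31 to 0.59), and its mean CPM difference was 0.205 without WT12, an alternative chosen after seeing the data, as were the means and bound without WT12, the sum of 5 Usp17l genes and the correlation without WT12 and WT34. The causes were not tested.

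Detection depended on its limit. At 5 or more counts, Zscan4d was detected in 3 lines, Zfp352 in 1, Tcstv1 in 0, Tcstv3 in 2 and Tmem92 in 3. At 10 or more these were 2, 0, 0, 0 and 1, and Usp17la was in 3. At 0.1 TPM or more, Zscan4d was in 2 lines, Zfp352 in 0, Tcstv1 in 1, Tmem92 in 3 and Usp17la in 3. The median correlation between members was 0.52 over 8 lines, -0.0563 without WT12 and WT34, and within its spread over pairs in the other alternatives. No paired analysis was possible because KO and WT lines share no replicate number and the littermates are not matched by name in the sources used here. At these depths 1 count is 0.0417 CPM or more, so differences among Zfp352, Tcstv1 and Tcstv3 rest on a few reads.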
